A study of Mus musculus with 2 samples.

Results

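The autophagy and mitophagy machinery comprised 44 genes, chosen by symbol as the core components of autophagosome formation, their cargo receptors and the receptors that hand mitochondria to them. A probe set that carried the symbol of a single gene was found for 42 of them, out of 18193 genes named in this way on the array, and these 42 were covered by 96 probe sets. Bnip3l was covered only by 3 probe sets that also carry the name of its pseudogene Bnip3l-ps, and Optn by none in the annotation used here. Expression was measured on Affymetrix 3' arrays in cells sorted from spleens of C57BL/6 mice bearing hepatocellular carcinoma, with 1 array for each of the 2 sorts. The CD45-negative sample held cells sorted as positive for Ter119, an erythroid surface marker, and negative for CD45, the surface marker of white cells. The CD45-positive sample held the white cells of the same animals and served as the control. Both samples therefore come from tumour bearers, and tumour-free mice were not analysed here. The number of mice, whether they were pooled, and their age are not given in the sources used here.

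Autophagy encloses cytoplasm in a double membrane, the autophagosome, which then fuses with the lysosome. A kinase complex starts the process, a lipid kinase complex marks the membrane, and proteins of the Atg8 family are coupled to it by ubiquitin-like conjugation, where they bind cargo receptors. Maturing mouse red cells remove their mitochondria by autophagy, and Bnip3l, also called Nix, is the mitochondrial receptor known for that step. White cells rely on the same machinery for survival and for the clearance of microbes.

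Neither array was replicated, so the error of a difference could not be estimated and no p-value is given. A difference is the log2 intensity of CD45-negative cells minus the log2 intensity of CD45-positive cells. A probe set counted as measured when its intensity lay above 123.9, the higher of the 2 arrays' 95th percentiles for 84 probe sets of olfactory, vomeronasal and taste receptor genes, which were taken as silent in spleen. These percentiles were 123.9 for CD45-negative cells and 72.8 for CD45-positive cells. Values at or below the level were set to it, so a difference that involves one is a bound and is written "at least". The brightest probe set stood for a gene. Probe sets of the same gene, measured in both arrays, differed with an SD of 0.62 on the log2 scale over 3288 genes, which is the only repeated measure and is not replicate error. In bulk samples such as these, more cells of a type and more RNA per cell cannot be told apart. Intensities of different probe sets are not per length and are not compared between genes.

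Marker genes went with the sort labels. Of 7 red cell markers on the array, all 7 were at least 4-fold higher in CD45-negative cells, with summed intensities of 335406 in CD45-negative cells and 10434 in CD45-positive cells. All 5 markers shared by white cells were at least 4-fold lower, with sums of 2367 and 119689. The same held for 3 of 3 B cell markers (1460 and 75407), 4 of 4 T cell markers (322 and 26060), 4 of 4 neutrophil markers (3454 and 124040) and 5 of 5 macrophage markers (1959 and 39685). Cd3d, Cd2, Thy1 and Cd48 were below the level in CD45-negative cells, and no marker was at exactly 0. All 5 platelet markers were at least 4-fold higher in CD45-negative cells (32107 and 1526). Of 6 stromal and endothelial markers 2 were measured, and of 6 liver and tumour markers only Afp was, at 42.4 in CD45-negative and 125.5 in CD45-positive cells. The red cell, white cell and platelet lists thus move with every difference given here, and their part in it was not tested.

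The machinery was split between genes that were higher and genes that were lower in CD45-negative cells. Of the 42 measured genes, 11 were at least 4-fold higher, which is 26.2%, against 8.67% of the 10993 genes measured in at least 1 array. Another 5 were at least 4-fold lower, which is 11.9%, against 16.8% of all measured genes, a share no larger than the background. The median difference was 0.83 over these 42 genes and -0.32 over all measured genes. At 2-fold, 19 were higher and 10 lower, against 16.9% and 34.2% of all measured genes. The 11 higher genes were Ulk1, Becn1, Atg9a, Wipi1, Atg4a, Atg4d, Map1lc3b, Gabarapl1, Gabarapl2, Nbr1 and Calcoco1. The 5 lower genes were Pik3r4, Uvrag, Atg3, Atg16l2 and Fundc1. When the probe sets of a gene were averaged, 7 remained higher and 3 lower, without Becn1, Map1lc3b, Nbr1, Calcoco1, Atg3 and Atg16l2, and quantile normalization also put Becn1, Map1lc3b and Nbr1 below 4-fold. After averaging, Atg3 lay below the level in both arrays. In 5 of the 42 genes the CD45-negative intensity lay below the level, namely Pik3r4, Atg10, Atg16l2, Atg4c and Bnip3, and for these the difference is a bound.

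**Figure D1:**
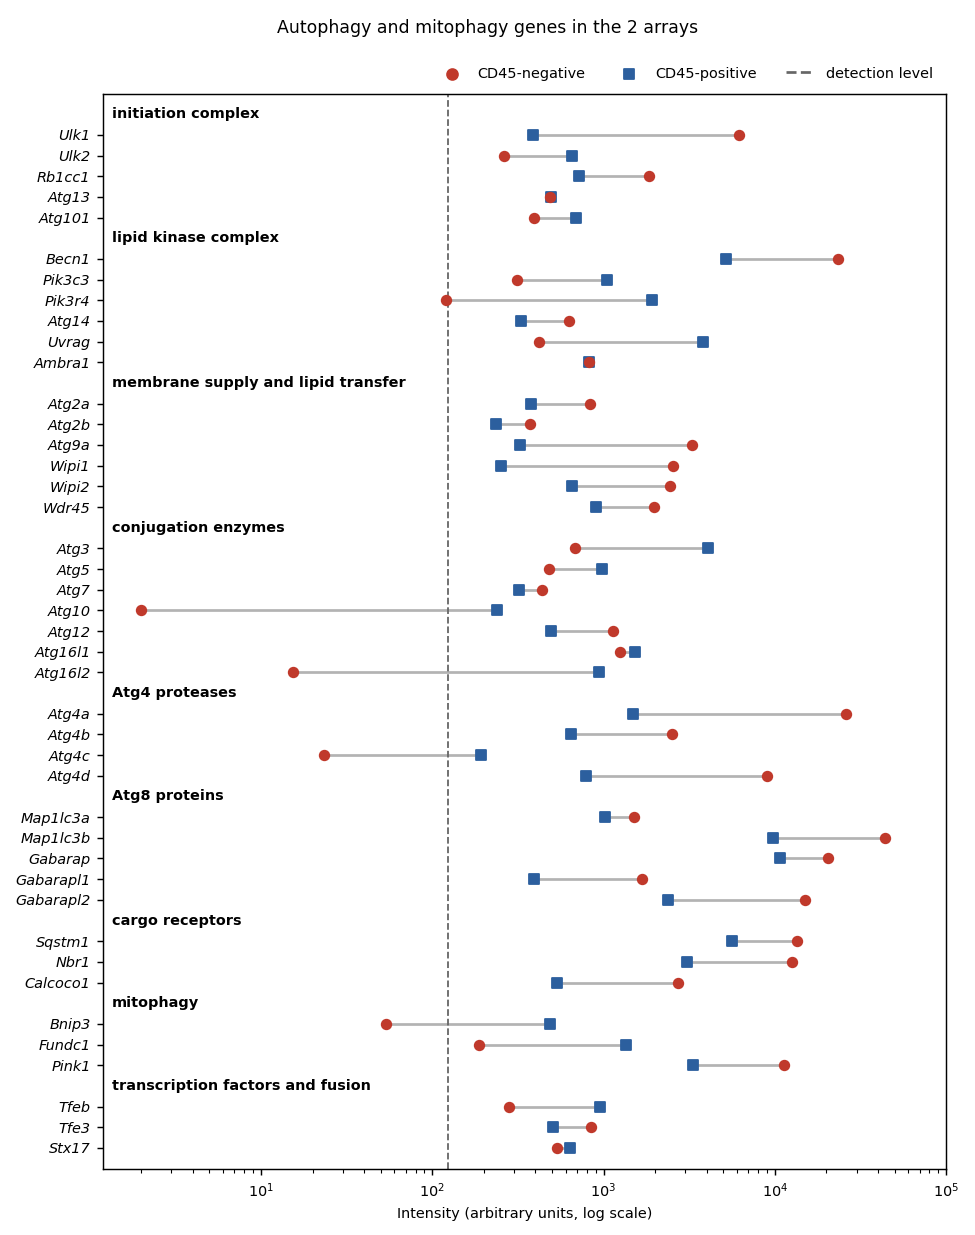
Intensity of each of the 42 genes in the CD45-negative array (circles) and the CD45-positive array (squares), on a log scale, by the brightest probe set and grouped by role. The dashed line is the detection level of 123.9. Circles lie far to the right for Ulk1, Atg9a, Wipi1, Atg4a and Atg4d. They lie far to the left for Pik3r4, Uvrag, Atg3, Atg10, Atg16l2, Atg4c, Bnip3 and Fundc1. Values below the level are drawn as deposited. Each point is 1 array.

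Promoter sequence is shown for the genes whose difference was past or close to 4-fold and whose upstream region held more than a single match, or a match to the element read by the autophagy regulators themselves. Sequences are from RefSeq, build GRCm38.p6, 5′ to 3′ on the gene's strand, and end at or before the base that precedes the annotated start. Capitals mark matches to AGATAA or TGATAA, the letters bound by GATA factors, to CACACCC, bound by Klf1, or to CACGTG, the core of the element bound by Tfeb and Tfe3, on either strand. Atg4a lies at chrX:140953745-140953844, plus strand, and has 3 GATA matches, at 83, 69 and 38 bases before the start. Atg4d lies at chr9:21265085-21265284, plus strand, with a GATA match at 107 bases and CACCC matches at 174 and 58 bases. Atg3, at chr16:45158709-45158788 on the plus strand, has CACGTG at 94 and 71 bases, and Bnip3, at chr7:138909567-138909646 on the minus strand, has it at 108 bases.
Atg4a: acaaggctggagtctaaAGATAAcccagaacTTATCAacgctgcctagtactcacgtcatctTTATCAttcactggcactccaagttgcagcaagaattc
Atg4d: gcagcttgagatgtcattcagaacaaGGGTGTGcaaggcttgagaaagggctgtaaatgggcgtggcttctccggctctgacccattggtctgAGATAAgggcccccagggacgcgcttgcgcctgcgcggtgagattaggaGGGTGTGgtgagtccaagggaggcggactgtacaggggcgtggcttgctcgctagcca
Atg3: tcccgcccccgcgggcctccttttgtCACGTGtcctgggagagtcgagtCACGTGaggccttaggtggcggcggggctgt
Bnip3: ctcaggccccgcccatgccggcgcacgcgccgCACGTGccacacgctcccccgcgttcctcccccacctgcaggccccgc

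Across the 43 promoters that the RefSeq table held for 37 of the 44 genes, searched over 250 bases upstream, the GATA letters were found in 4 (9.30%), against 16.6% of all 32851 promoters in the table. The 4 genes were Atg4a, Atg4d, Pink1 and Tfe3. CACACCC was found in 6 (14.0%), against 6.93% of all promoters, and these belonged to Atg4d, Calcoco1, Tfe3, Ulk2 and Uvrag. CACGTG was found in 4 (9.30%), against 6.02%, in Atg3, Atg5, Atg7 and Bnip3, of which 3 belong to the conjugation enzymes. None of these 4 genes was at least 4-fold higher, against 26.2% of the 42 measured genes of the machinery and 8.67% of all measured genes. With 4 genes, no difference from these shares can be read. CACGTG reads the same on both strands, and no match overlapped a match to another motif in the promoters shown. A match is a description of letters and not a binding site. The genes without an entry were Rb1cc1, Becn1, Pik3c3, Atg12, Atg16l1, Map1lc3a and Bnip3l.

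Of the 5 genes of the initiation complex, only the kinase Ulk1 (20.0%) was at least 4-fold higher in CD45-negative cells, against 8.67% of all measured genes. Ulk1 had 6152.5 in CD45-negative cells against 389.6 in CD45-positive cells, a 15.8-fold difference (3.98 on the log2 scale). Its second probe set had 2053.8 against 31.5, at least 16.6-fold. Ulk2, the paralogous kinase, went the other way, at 262.1 in CD45-negative cells against 652.6 in CD45-positive cells (-1.32). All 4 probe sets of Ulk2 lay below 0, from -2.70 to -0.34, and the differences of the kinases were 5.30 apart on the log2 scale. Rb1cc1, the scaffold also called FIP200, had 1832.6 against 721.6 (1.34). Atg13, the adaptor between kinase and scaffold, had 488.5 against 492.4, and Atg101, which stabilises Atg13, had 390.7 against 687.8 (-0.82). By their brightest probe sets, Ulk2, the scaffold and the adaptors stayed below 4-fold. Dimmer probe sets of Ulk2 were 6.51-fold and at least 4.76-fold lower.

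In the lipid kinase complex, the shared subunits did not go the same way. Becn1, the Beclin 1 scaffold, had 23524.5 in CD45-negative cells against 5191.5 in CD45-positive cells, 4.53-fold higher. All 5 of its probe sets lay above 0, from 0.99 to 2.18. The catalytic subunit Pik3c3 (Vps34) was dimmer, at 310.6 against 1051.6 (-1.76). Its regulatory subunit Pik3r4 (Vps15) had 119.6, just below the level, against 1911.6, at least 15.4-fold lower. Each of these 2 subunits rested on a single probe set. The complex takes either Atg14, which directs it to autophagosome formation, or Uvrag, which directs it to endosomes. Atg14 had 631.6 in CD45-negative cells against 329.2 in CD45-positive cells (0.94), while Uvrag had 421.5 against 3811.3, 9.04-fold lower. Ambra1, a regulator of Becn1, had 826.4 against 819.1, a difference of 0.01.

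All 6 genes of membrane supply and lipid transfer had a positive difference, 5 of them past 2-fold and 2 past 4-fold, with a median of 1.52. Among all measured genes, 16.9% were higher by 2-fold and 8.67% by 4-fold. Atg9a, the lipid scramblase carried on the vesicles that seed the autophagosome, had 3277.6 in CD45-negative cells against 325.8 in CD45-positive cells, 10.1-fold higher. Wipi1, which binds the lipid mark, had 2543.9 against 251.7, also 10.1-fold. The 6 probe sets of Wipi1 ranged from 0.79 to 3.34, and with probe sets not marked as matching several transcripts its difference was 1.47, below 4-fold. Wipi2, which recruits the conjugation machinery, had 2443.0 against 655.4 (1.90), and its 3 probe sets ranged from 0.63 to 2.85. Wdr45, a further member of that family, had 1982.7 against 909.3 (1.12). The lipid transfer proteins Atg2a (836.5 against 377.0) and Atg2b (374.2 against 235.9) differed by 1.15 and 0.67.

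None of the 7 conjugation enzymes was at least 4-fold higher, 2 (28.6%) were lower by that much, against 8.67% and 16.8% of all measured genes, and their median difference was -0.95. Atg3, the enzyme that transfers Atg8 proteins to lipid, had 678.6 in CD45-negative cells against 4056.2 in CD45-positive cells, 5.98-fold lower. Its other probe set, at 11.7 and 3.6, was below the level in both arrays. Atg10, which transfers Atg12 to Atg5, had 2.0 against 238.8, at least 1.93-fold lower. Atg7, the activating enzyme that serves both transfers, had 437.4 against 321.4 (0.44), with probe sets from -0.02 to 1.44. The conjugate's parts differed in direction, with Atg12 at 1129.1 against 496.6 (1.19) and Atg5 at 479.0 against 981.6 (-1.04). Of the proteins that place the conjugate on the membrane, Atg16l1 had 1251.1 in CD45-negative cells against 1518.8 in CD45-positive cells (-0.28). Its paralogue Atg16l2 had 15.4 against 941.5, at least 7.60-fold lower.

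The Atg4 proteases, which trim Atg8 proteins before coupling and release them afterwards, had 2 of 4 genes at least 4-fold higher in CD45-negative cells. Among all measured genes 8.67% were. Atg4a had 25985.1 in CD45-negative cells against 1483.1 in CD45-positive cells, 17.5-fold higher. Its second probe set was dimmer, at 301.1 against 60.6, at least 2.43-fold higher. Atg4d had 8957.2 against 787.1, 11.4-fold higher, and its second probe set 134.9 against 53.8. Atg4b, the protease with the broadest substrate range, had 2514.3 against 644.0 (1.97), just short of 4-fold. Atg4c was measured only in CD45-positive cells, at 23.4 in CD45-negative cells against 192.9, at least 1.56-fold lower. Its other probe set had 8.4 against 244.4. Atg4a and Atg4d thus differed from Atg4c by 4.77 and 4.15 on the log2 scale, with the dim value of Atg4c set to the level.

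All 5 Atg8 genes had a positive difference by their brightest probe set, and 3 were at least 4-fold higher in CD45-negative cells. The share among all measured genes was 8.67%. Gabarapl2 had 14940.4 in CD45-negative cells against 2388.4 in CD45-positive cells, 6.26-fold higher, and its other probe set had 807.6 against 117.2, at least 6.52-fold. Gabarapl1 had 1675.3 against 391.6, 4.28-fold higher, and 950.2 against 159.2 by its other probe set, 5.97-fold. Both genes were past 4-fold by every probe set. Gabarap had 20528.9 against 10770.5 by its only probe set (0.93). Map1lc3a, which encodes LC3A, had 1508.4 against 1016.1 (0.57), and 460.8 against 285.9 by its second probe set (0.69).

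Map1lc3b, which encodes LC3B, the usual marker protein of autophagosomes, had probe sets that went in opposite directions. The brightest, 1415930_a_at, had 43742.9 in CD45-negative cells against 9720.1 in CD45-positive cells, 4.50-fold higher. Probe set 1415929_at had 18678.4 against 4818.8 (1.95), and 1415928_a_at had 11521.5 against 3400.2 (1.76). The fourth, 1428024_at, had 39.0, below the level, against 311.5, at least 2.51-fold lower. Only the brightest probe set was past 4-fold, and averaging the deposited log2 intensities of all 4, with the dim value not set to the level, gave 0.72. Map1lc3b was the only autophagy gene with probe sets past 2-fold in both directions, so its direction holds for 3 of its 4 probe sets and not for the gene as a whole.

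**Figure D2:**
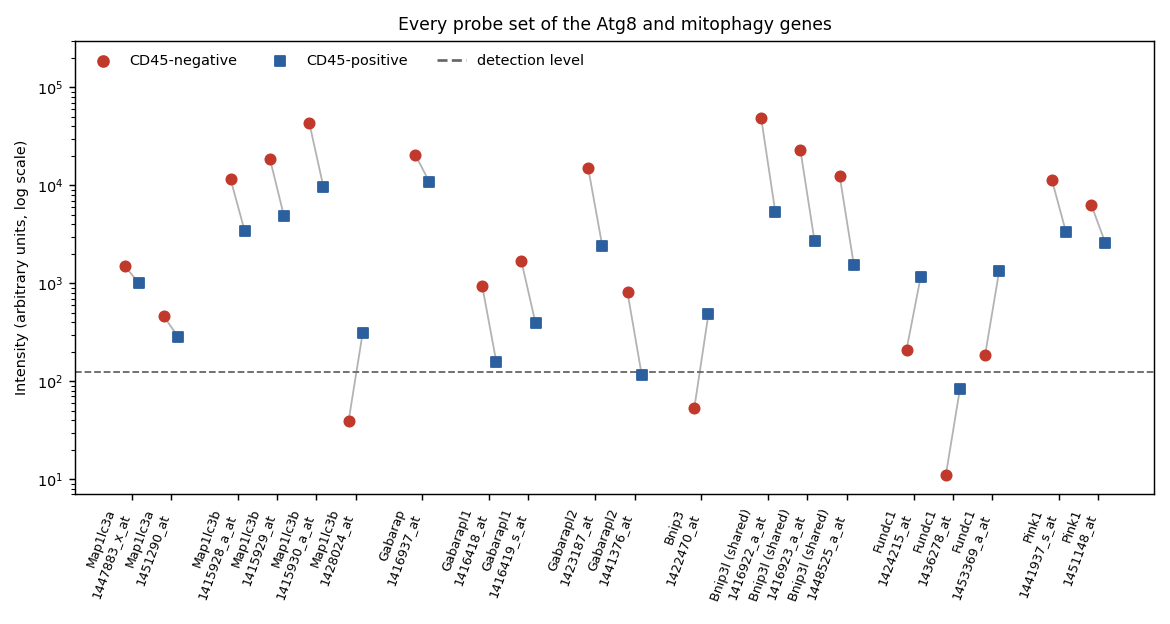
Intensity of every probe set of the Atg8 and mitophagy genes in the CD45-negative array (circles, left of each pair) and the CD45-positive array (squares), on a log scale, with the detection level of 123.9 dashed. The circle lies above the square for 3 Map1lc3b probe sets and below it for the fourth, and the shared Bnip3l probe sets all lie higher in CD45-negative cells. Each point is 1 array.

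Cargo receptors were higher in CD45-negative cells in 2 of 3 measured genes by 4-fold and in all 3 by 2-fold. Among all measured genes, 8.67% were higher by 4-fold and 16.9% by 2-fold. Calcoco1, a receptor for the endoplasmic reticulum, had 2723.1 in CD45-negative cells against 532.7 in CD45-positive cells, 5.11-fold higher, and 378.7 against 166.2 by its second probe set (1.19). Nbr1, a receptor for ubiquitinated cargo, had 12588.2 against 3059.2, 4.11-fold higher and close to the threshold. Its second probe set gave 1.82. Sqstm1 (p62), the founding receptor of this kind, had 13437.2 against 5658.7 (1.25).

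Among the mitophagy genes, the receptors differed in direction. The 3 probe sets shared by Bnip3l and its pseudogene had 49085.9 in CD45-negative cells against 5388.3 in CD45-positive cells, 22880.9 against 2690.9, and 12415.0 against 1541.0. These differences were 9.11-fold, 8.50-fold and 8.06-fold, all higher in CD45-negative cells, but signal from the gene and from the pseudogene cannot be told apart, and the probe sets entered no count. Bnip3, the paralogous receptor induced by low oxygen, had 53.5 in CD45-negative cells, below the level, against 487.9 in CD45-positive cells, at least 3.94-fold lower. Fundc1, another receptor of the outer mitochondrial membrane, had 186.4 against 1352.5, 7.26-fold lower, and its second measured probe set had 210.1 against 1165.7, 5.55-fold lower. Pink1, the kinase that flags damaged mitochondria for the ligase parkin, had 11357.4 against 3318.1 (1.78), and 6348.7 against 2589.5 by its other probe set (1.29). Pink1 was thus brighter in CD45-negative cells by both probe sets without passing 4-fold.

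The transcription factors and the fusion protein did not pass 4-fold. Tfeb, the regulator of lysosomal and autophagy genes, had 280.8 in CD45-negative cells against 954.0 in CD45-positive cells (-1.76). Its relative Tfe3 had 845.8 against 507.2 (0.74), so the differences of the pair were 2.50 apart. Stx17, the syntaxin that joins autophagosome and lysosome, had 535.0 against 638.1, and its 4 probe sets ranged from -0.45 to 0.37. The signs of Atg13, Atg16l1 and Stx17 turned positive under at least 1 other scaling of the arrays, so no direction holds for these 3 genes.

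Probe sets of a gene mostly had the same sign. Of the 27 genes with several measured probe sets, 12 were past 4-fold by the brightest, and in 11 of these 12 every measured probe set had the same sign, Map1lc3b being the exception. Every measured probe set was past 4-fold in 4, namely Ulk1, Gabarapl1, Gabarapl2 and Fundc1. The remaining 4 of the 16 genes past 4-fold, Atg9a, Pik3r4, Uvrag and Atg3, rested on a single measured probe set.

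**Figure D3:**
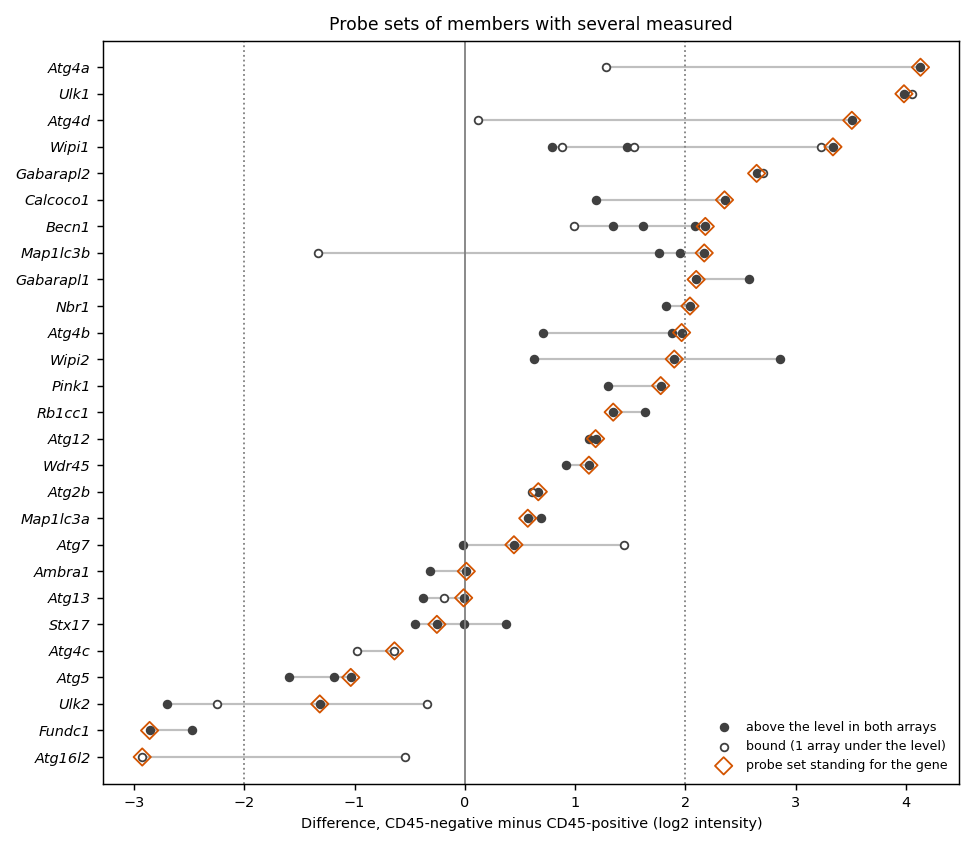
Difference between the arrays, CD45-negative minus CD45-positive in log2 intensity, for every measured probe set of the 27 genes with several. Filled circles were above the level in both arrays, open circles are bounds, diamonds mark the probe set that stood for the gene, and dotted lines mark 4-fold. Map1lc3b spans from -1.33 to 2.17, while Ulk1 and Gabarapl2 have closely placed points.

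Other genes of the pathway, listed by role, had shares near those of all genes. In 5 lists with 120 measured genes, 12 (10.0%) were higher by 4-fold or more and 26 (21.7%) were lower, against 8.67% and 16.8% of all measured genes. Their median difference was -0.37, close to that of all genes. Whether they differ from the core genes was not tested.

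The list of selective autophagy and mitochondrial quality control had 29 measured genes, of which 5 (17.2%) passed 4-fold upward and 3 (10.3%) downward (median 0.16). Of all measured genes, 8.67% and 16.8% did. Ncoa4, the receptor that delivers ferritin for iron release, had 33591.0 in CD45-negative cells against 3685.9 in CD45-positive cells, 9.11-fold higher, and its probe sets gave 3.19 and 3.63. Marchf5, a ubiquitin ligase of the outer mitochondrial membrane, had 33019.2 against 3295.9, 10.0-fold higher, with probe sets from 1.99 to 4.49. Bcl2l1, which encodes the survival protein Bcl-xL, was 8.27-fold higher and the deubiquitinase Usp15 7.88-fold, but probe sets of both ran down to 0.52 and 0.27. Retreg1, a receptor for the endoplasmic reticulum, had 146.2 in CD45-negative cells against 6122.6 in CD45-positive cells, 41.9-fold lower, while its other probe set gave -2.60. Tex264, a receptor of the same organelle, was at least 6.02-fold lower, and the mitochondrial Nipsnap1 4.26-fold lower.

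Of 15 further genes of initiation and nucleation, 1 (6.67%) passed 4-fold upward and 2 (13.3%) downward, against 8.67% and 16.8% of all measured genes. Sh3glb1, which binds Uvrag and bends membranes, had 36558.8 in CD45-negative cells against 7104.7 in CD45-positive cells, 5.15-fold higher, with probe sets from 1.28 to 2.36. Rubcn, the Uvrag-binding inhibitor Rubicon, had 46.7 against 1595.6, at least 12.9-fold lower, and Trp53inp2, a nuclear carrier of LC3, was at least 11.5-fold lower by its brightest probe set, with its other at -1.17. Rubcn thus lay on the same side as Uvrag. Of 16 measured fusion genes, 0 passed 4-fold upward and 3 (18.8%) downward, a share near the 16.8% of all measured genes, and the median was -1.34. The 3 were the SNARE proteins Vti1b (4.38-fold) and Stx7 (4.15-fold) and the tethering subunit Vps18 (4.06-fold), all near the threshold. Probe sets of Vps18 ran from -2.02 to -0.58.

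Lysosomal genes were lower in CD45-negative cells in 11 of 27 measured by 4-fold, which is 40.7%, against 16.8% of all measured genes. Only Atp6v0a1 passed it upward (3.70%, against 8.67% of all measured genes), and the median was -1.73. Laptm5, a lysosomal protein of white cells that is also on the white cell marker list, had 421.2 in CD45-negative cells against 16203.9 in CD45-positive cells, 38.5-fold lower by its brightest probe set, with probe sets from -5.27 to 0.44. Of the proteases, Ctss had 1309.1 against 22884.8, 17.5-fold lower, Ctsz was 15.3-fold lower, and Ctsa 11.2-fold lower, with a second probe set of Ctsa at 0.09. Ctsb and Ctsd went the other way, with 33610.3 against 10776.8 (1.64) and 6536.6 against 2888.6 (1.18). Atp6v0a1, a subunit of the proton pump, had 2517.2 against 225.9, 11.1-fold higher, with probe sets from 0.29 to 4.26. The macrophage and neutrophil markers, whose cells are rich in lysosomal enzymes, were lower by 4-fold in 9 of 9 genes, and their part in this list was not tested.

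Of 33 measured genes of mTORC1 and AMPK signalling, which restrain and promote initiation through Ulk1, 5 (15.2%) passed 4-fold upward and 7 (21.2%) downward, against 8.67% and 16.8% of all measured genes (median -0.19). Fnip2, a folliculin partner, had 4888.7 in CD45-negative cells against 185.5 in CD45-positive cells, 26.4-fold higher by its only probe set. Rragd, a small GTPase that recruits mTORC1, was at least 7.35-fold higher by its brightest probe set, while its other gave 0.27. The AMPK subunit Prkab1 was 6.17-fold and Nprl3, an inhibitor of mTORC1, 5.86-fold higher. Sesn3 and Ddit4, stress-induced inhibitors of mTORC1, had 27.4 against 1903.0, at least 15.4-fold lower, and 231.7 against 3227.0, 13.9-fold lower. Sesn2, a relative of Sesn3, went the other way, with 1367.1 against 307.0, 4.45-fold higher, and probe sets at 2.15 and 2.89. Lamtor4 and Lamtor2, which anchor mTORC1 to the lysosome, were 9.77-fold and 4.78-fold lower. The kinase Mtor itself had 775.5 in CD45-negative cells against 995.5 in CD45-positive cells (-0.36), but its other probe set gave 1.42, so no direction holds for it.

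**Figure D4:**
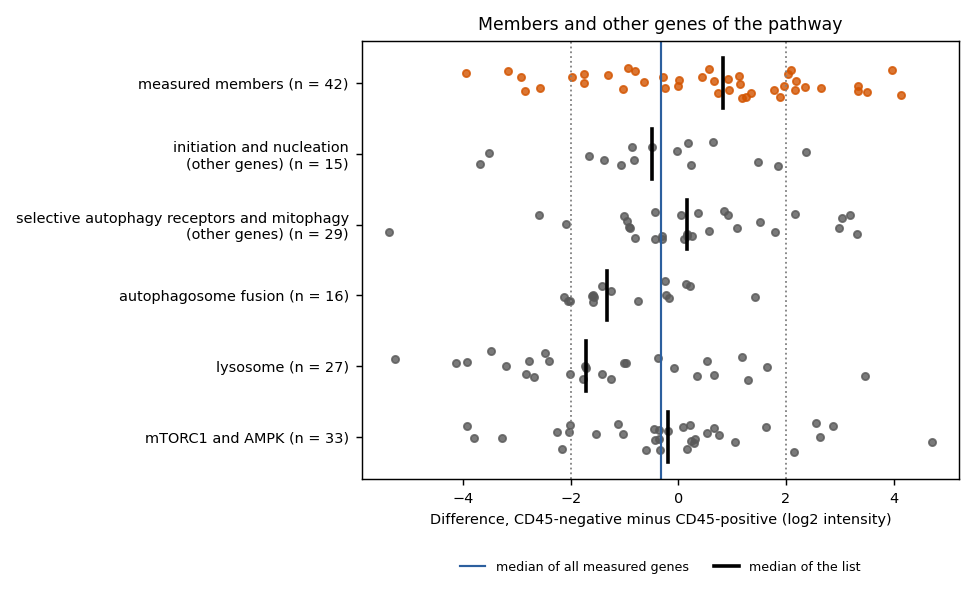
Difference between the arrays, CD45-negative minus CD45-positive in log2 intensity, for each measured core gene (top row) and each measured gene of the 5 other lists. Black bars are list medians, from 0.83 for the core genes to -1.73 for the lysosomal genes, the vertical line is the median of all measured genes (-0.32), and dotted lines mark 4-fold.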

How the data were processed

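RNA of 2 samples was hybridised to Affymetrix 3' arrays as biotinylated cRNA, per the labels' protocols. The table deposited by the authors holds 1 linear intensity per array for each of 45037 probe sets. The submitters' processing notes name GCRMA and Partek 6.6 without their roles. Means with 2% trimmed at each end were 493 in the CD45-negative and 496 in the CD45-positive array, so a scaling to a common level is possible but not settled, and differences may carry a scaling error common to all genes.

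Symbols came from GEO's platform annotation: 34945 probe sets had 1 symbol, 932 had several and 9160 none. RefSeq identifiers (GRCm38.p6) matched 34741 of the 34945 and changed 0 symbols. Intensities were converted to log2 without a pseudocount or further normalization, and the probe set with the highest mean log2 value stood for a gene. With 1 array in each group, their number limits precision throughout. The rule for named genes took every core gene, the marker genes, and from each pathway list up to 4 genes in each direction with the largest differences past 4-fold. Values of Mtor, Sesn2, Ctsb and Ctsd, outside it, were chosen after they were seen. The members and lists were chosen with earlier results of these data known. A planned comparison of Atg8 protein sequences was not made. Alternatives concerned the detection level, the choice of probe set, the scaling and the fold. The counting of 4-fold differences was tested on simulated data, with effects larger than 4-fold set only in genes well above the level. That test does not cover calls near 4-fold or calls that rest on bounds. Python 3.11.15, numpy 2.4.6, pandas 2.3.3 and matplotlib 3.10.9 were used.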

Additional observations from a re-analysis of the deposited data

How the results depend on the processing

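In the alternatives at 4-fold, the level came from both arrays together, was the 99th percentile, or was not used. The probe sets of a gene were averaged, or unmarked ones were preferred where a gene had any. Marked probe sets have names ending in _a_at, _s_at or _x_at, for matches to several transcripts. The arrays were also scaled by quantile normalization or by median centring. A 2-fold threshold was the last alternative. Of the 11 core genes at least 4-fold higher, 6 (Ulk1, Atg9a, Atg4a, Atg4d, Gabarapl1, Gabarapl2) kept that call in all 7 alternatives at 4-fold. Of the 5 lower genes 3 did (Pik3r4, Uvrag, Fundc1). All 11 higher genes, and Uvrag and Fundc1, lay above 174.0, the highest level used for the deposited values, in both arrays. The 3 changes of level therefore could not change their calls. Median centring moved the differences upward, so it could not remove a higher call either. Atg9a, Pik3r4 and Uvrag had 1 probe set each, so averaging and the choice of unmarked probe sets could not change their calls. The only probe set of Pik3r4 carries the mark and stayed in use. With the mean of probe sets 7 core genes were higher and 3 lower, since dimmer probe sets enter. Becn1, Calcoco1, Map1lc3b and Nbr1 were lost from the higher and Atg16l2 from the lower. Atg3 was lost because its mean fell below the level in both arrays and it no longer counted as measured. Quantile normalization lost Becn1, Map1lc3b and Nbr1 and gained Atg4b and Wipi2, and median centring gained Atg4b, Wipi2 and Pink1. Without a level 8 core genes were lower, Atg10, Atg4c and Bnip3 being added, and 2885 genes of all were higher and 3293 lower, with genes near background included. Median centring left 17 lower genes in the pathway lists, against 26 as deposited. By construction it shifts every difference between values above the level in both arrays by the same amount, here upward. Ulk1 moved from 3.98 to 4.36 and Uvrag from -3.18 to -2.80. At 2-fold the counts were by construction larger, with 19 higher and 10 lower core genes, 23 and 45 pathway genes, and 1857 and 3760 of all genes. The median of all genes was -0.32 as deposited, and quantile normalization moved it to -0.04 and median centring to 0.00. Higher genes made up 34.1% of all 4-fold differences as deposited, 45.9% with median centring, 43.1% with quantile normalization and 46.7% without a level. In the pathway lists they made up 31.6% as deposited and 48.5% after median centring, and among the core genes 68.8%, 66.7% after quantile normalization, 73.7% after median centring and 57.9% without a level. Counting the shared Bnip3l probe set, an alternative chosen after seeing the data, gave 12 higher core genes. No paired analysis was possible because each group had 1 array, which also left no replicate to leave out. Dim values limit 5 core genes to bounds.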
